A study of Mus musculus with 10 samples.

Results

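The genes described here encode cytochrome P450s of families 1 to 4, UDP-glucuronosyltransferases (UGT), glutathione S-transferases (GST) and sulfotransferases (SULT). They were chosen by symbol alone, from the table of RNA sequencing in a line of mouse small cell lung cancer (mSCLC) cells that was derived from a primary lung tumour of mice with conditional, Adeno-Cre driven gene deletion. Of 26335 rows, 74 matched, and 1 further row with a hyphen in its name was left out. A mean log2 CPM (the reads of a gene scaled to the depth of the library, on a log2 scale) above 0 over the 10 libraries was reached by 29 of the 74, namely 10 of 29 P450, 4 of 14 UGT, 12 of 22 GST and 3 of 9 SULT genes. The 5 control libraries came from cells kept in DMSO and the 5 stiripentol libraries from cells kept in 250 μM stiripentol, both for 48 h, and both groups carry the same deletions, those of this line. The methods call all samples of the work biologically independent, in terms of mice, and do not say how the libraries of this cell line relate to cultures, so the p-values measure only the spread between these libraries.

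P450 enzymes oxidise drugs, fatty acids, steroids and carcinogens, and UGT, SULT and GST enzymes then couple such compounds to glucuronic acid, sulfate or glutathione, which makes them easier to excrete. The enzymes are best known from liver and gut, and in the airways several are typical of club cells. Some of their genes are classical targets of the aryl hydrocarbon receptor (Ahr) or of the oxidant-responsive factor Nfe2l2. Ahr acts with its partner Arnt, and Keap1 holds Nfe2l2 back. Stiripentol is an antiseizure drug that inhibits lactate dehydrogenase and several P450 enzymes, and the study asked how it acts on the respiratory chain of tumour cells. RNA was the only measure here, so enzyme activity is not addressed.

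Whole reads could be recovered from the deposited values, and the totals were 22375625 to 65299372 reads per control library and 55015760 to 60670901 per stiripentol library. Reads can be amplified copies of one molecule, so depth speaks to counting error only. Each group divided into 2 clusters of libraries, controls 1 to 3 and controls 4 and 5, and stiripentol 1 and 2 and stiripentol 3 to 5. Across genes, the correlation of libraries was 0.983 to 0.997 within a control cluster and 0.920 to 0.939 between the control clusters, and it was 0.995 to 0.998 and 0.923 to 0.938 for stiripentol. The sample records do not account for the clusters, so the difference of every pair of clusters is given for the genes on which the results turn. In the deposited values, the value that stands for no read was lower in controls 1 to 3 than in all other libraries. It thus parts the control clusters but not the stiripentol clusters. Controls 1 to 3 may therefore have been scaled apart from the other libraries, and the part of this in the control clusters was not tested. A table printed in the paper orders the control libraries otherwise than the sample records used here. Matched by value, controls 4 and 5 stand there as numbers 1 and 2 and controls 1 to 3 as numbers 3 to 5, so that in that order the clusters of both groups hold the same numbers, and what a shared number means is not stated. Among markers of the labelled cell type, Insm1 had at most 10 and Syp at most 20 reads in any library, whereas Ncam1 was well expressed. The summed CPM of the neuroendocrine markers was 93.5 to 120 in control and 127 to 157 in stiripentol libraries, nearly all of it Ncam1, which was itself called higher (log2 change 0.46, limma adjusted p = 0.00911). The club cell gene Cyp2f2 had at most 2 reads, and the hepatocyte genes Alb and Apoa1 at most 1 and 5 reads. The summed CPM of 5 fibroblast markers was 317 to 511 in control and 106 to 129 in stiripentol libraries. Of these markers, Col1a2, Col3a1 and Pdgfra were lower by limma, whereas Col1a1 and Dcn were not called (limma adjusted p = 0.529 and 0.557). Neither Col1a1 nor Dcn changed in the same direction over all pairs of clusters. The summed CPM of 3 leukocyte markers was 4.27 to 18.3 in control and 55.3 to 103 in stiripentol libraries. Nearly all of it was Cd68, with Ptprc at no more than 3 reads. The part of these markers in the results was not tested.

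With stiripentol, 3 of the 29 genes were higher, the P450 genes Cyp2c55, Cyp4f13 and Cyp4f17, and 1 was lower, the sulfotransferase gene Sult1a1 (limma with Benjamini-Hochberg adjustment over 12306 genes, adjusted p under 0.05, referred to as called). Of all genes tested, 13.6% were called higher and 14.1% lower, so the share called among the 29 was not above that of all genes. No UGT or GST gene above the filter was called, and 13 of the 29 had an unadjusted p under 0.05, where 41.7% of all genes did. The median change of the 29 was 0.40 on the log2 scale, against -0.0563 over all genes. With TMM scaling, which moved the median of all genes to 0.0458, 7 of the 29 were called higher and 1 lower, and with quantile normalization 8 and 1, where 16.1% and 17.0% of all genes were called higher. The genes gained were all GST genes, Gsta3, Gsto1, Gsto2 and Gstp2 under both scalings and Gsta1 under quantile normalization alone. With them, the share called higher among the 29 was above that of all genes under these scalings, but this excess was not tested. On the deposited scaling, stiripentol 1 and 2 differed from controls 4 and 5 by -1.58 for Gsta1 and -1.56 for Gsta3. The difference was -0.066 for Gsto2, 0.011 for Gstp2 and 0.70 for Gsto1. Gsta1 and Gstp2 also share part of their transcript sequence with other genes. Control and stiripentol values did not overlap in 4 of the 29, the called genes, compared with 27.2% of all genes. Of these, Cyp2c55 and Sult1a1 were above the filter only through the group where they were high. Their means were -1.05 in control and 1.09 in stiripentol libraries for Cyp2c55, and 4.62 and -0.08 for Sult1a1. Among the GST genes gained, the same held for Gsta3, at -1.24 and 2.84.

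**Figure D1:**
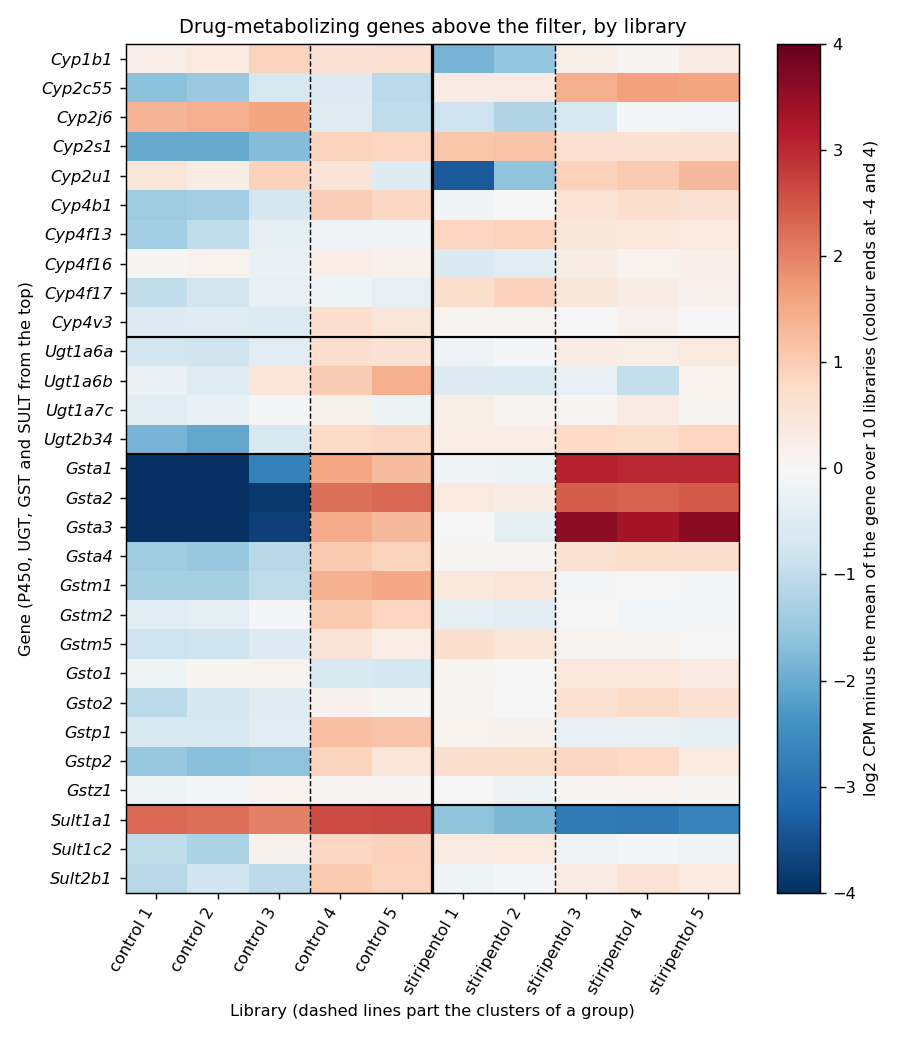
Heat map of the 29 genes (rows, grouped as P450, UGT, GST and SULT from the top) in 10 libraries (columns), coloured by log2 CPM minus the mean of the gene, with the scale ending at -4 and 4. Sult1a1 is the row that parts the groups most clearly, whereas Gsta1, Gsta2 and Gsta3 are lowest in controls 1 to 3 and highest in stiripentol 3 to 5 or, for Gsta2, nearly as high in controls 4 and 5.

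Sult1a1 encodes the phenol sulfotransferase that couples sulfate to phenols and many drugs, and it lies on chr7:126672865-126676432 (GRCm38, minus strand, protein-coding). Its log2 CPM was 4.52, 4.48, 4.30, 4.88 and 4.92 in controls 1 to 5 and 0.65, 0.49, -0.56, -0.57 and -0.39 in stiripentol 1 to 5. In reads, these were 1498, 1293, 1249, 1866 and 678 against 93, 79, 37, 38 and 40. Every stiripentol library thus lay far below every control library, and both stiripentol clusters were low. In RNA of whole cultures, fewer cells with a transcript and less of it per cell cannot be told apart. Sult1a1 fell by 4.70 on the log2 scale (limma, adjusted p = 1.67e-05, with a standard error of 0.29), a 25.9-fold difference. The fall was 4.94 between stiripentol 3 to 5 and controls 1 to 3 and 4.33 between stiripentol 1 and 2 and controls 4 and 5, with log2 changes of -3.86 and -5.41 for the other pairs of clusters. When each cluster was first averaged, leaving 2 means against 2, Sult1a1 had an unadjusted p of 0.000129 and an adjusted p of 0.177 (limma). Only 1.75% of its transcript windows of 100 bases occurred in another gene, Gm6939, which had no read in any library.

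The other sulfotransferase genes above the filter did not follow Sult1a1. Sult1c2, another sulfotransferase of small phenolic compounds, measured 3.49, 3.22, 4.66, 5.32 and 5.41 log2 CPM in controls and 4.85, 4.87, 4.34, 4.40 and 4.34 in stiripentol libraries. Sult2b1, which sulfates cholesterol and other sterols, measured -0.59, -0.30, -0.52, 1.56 and 1.39 in controls and 0.33, 0.47, 0.82, 1.04 and 0.89 in stiripentol libraries. In both genes the stiripentol values lay inside the control range. Their log2 changes were 0.14 (limma, adjusted p = 0.822, with a standard error of 0.42) and 0.40 (limma, adjusted p = 0.532, with a standard error of 0.47). The other 6 Sult genes were below the filter.

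**Figure D2:**
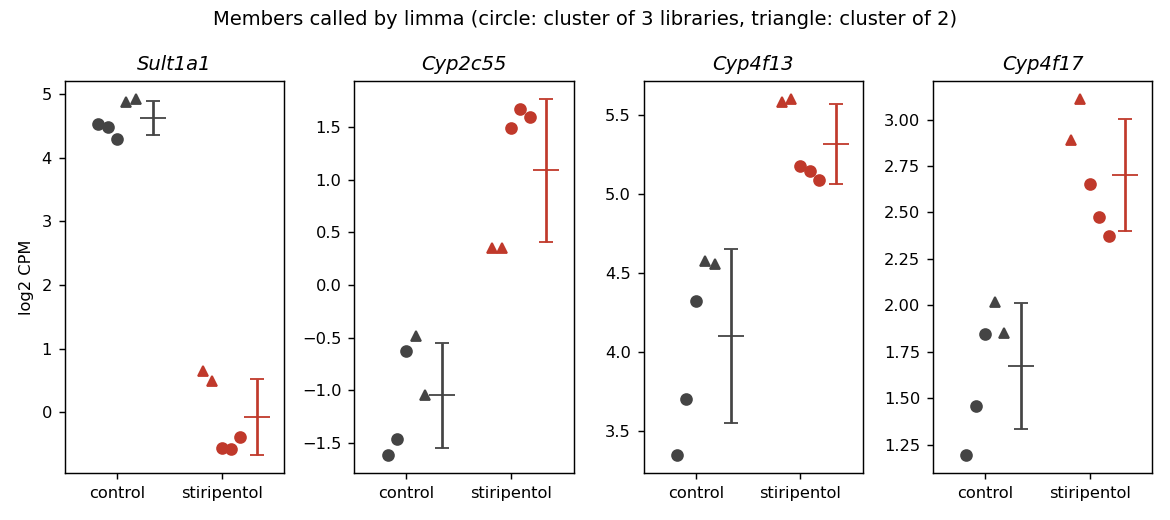
Log2 CPM of Sult1a1, Cyp2c55, Cyp4f13 and Cyp4f17 in each of 5 control and 5 stiripentol libraries (points, circles for clusters of 3 libraries and triangles for clusters of 2), with the mean and SD of each group beside them. The groups do not overlap in any of the 4 panels, whose vertical axes differ and do not start at 0.

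Cyp2c55, a Cyp2c enzyme that hydroxylates arachidonic acid (chr19:39007019-39042693, plus strand), was the lowest-expressed called gene and passed the filter only through its stiripentol libraries. It measured -1.61, -1.46, -0.63, -0.49 and -1.05 log2 CPM in controls and 0.35, 0.36, 1.49, 1.67 and 1.59 in stiripentol libraries, with no more than 188 reads in any library. All stiripentol values were above all controls, and stiripentol 3 to 5 were the highest. The rise was 2.14 on the log2 scale (limma, adjusted p = 0.00299, with a standard error of 0.38), or 4.40-fold. Against the 4 pairs of clusters it ranged from 1.12 to 2.82.

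Cyp4f13 and Cyp4f17 belong to the Cyp4f enzymes, which hydroxylate fatty acids and eicosanoids, and both lie on chromosome 17 (chr17:32924688-32947402, minus strand, and chr17:32506050-32530143, plus strand). Cyp4f13 measured 3.35, 3.70, 4.32, 4.58 and 4.56 log2 CPM in controls and 5.58, 5.60, 5.18, 5.15 and 5.09 in stiripentol libraries. Cyp4f17 measured 1.19, 1.46, 1.85, 2.02 and 1.85 in controls and 2.89, 3.11, 2.65, 2.48 and 2.37 in stiripentol libraries. In both genes stiripentol 1 and 2 were highest and controls 1 and 2 lowest, so the order of the stiripentol clusters was opposite to that of Cyp2c55. Cyp4f13 rose by 1.22 on the log2 scale (limma, adjusted p = 0.00626, with a standard error of 0.25) and Cyp4f17 by 1.03 (limma, adjusted p = 0.00902, with a standard error of 0.23). With controls 4 and 5 as the only controls, Cyp4f17 changed by 0.77 and was no longer called (limma adjusted p = 0.0757). Cyp4f16 (chr17:32536558-32551798, plus strand) is the listed gene nearest to Cyp4f17, but not to Cyp4f13. It measured 4.10 to 4.65 in controls and 3.80 to 4.66 in stiripentol libraries, so it did not share the pattern. Its log2 change was -0.15 (limma adjusted p = 0.605). Cyp4f16 was picked out after its values were seen. With cluster means, 2 against 2, none of the 3 genes that rose was called, and of the 29 genes Sult1a1 and Cyp4f13 alone had an unadjusted p under 0.05 (limma, 0.0353 for Cyp4f13).

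Among the P450 genes that were not called, Cyp1b1 and Cyp2s1 had the highest mean of their families. Cyp1b1, which oxidises oestrogens and polycyclic hydrocarbons, measured 7.22, 7.37, 7.87, 7.55 and 7.58 log2 CPM in controls and 5.10, 5.43, 7.20, 7.07 and 7.30 in stiripentol libraries. Stiripentol 1 and 2 were far below all controls, whereas stiripentol 3 to 5 lay at about the level of the lowest control. The log2 change was -1.10 (limma, adjusted p = 0.0773, with a standard error of 0.43), and it was below 0 for each pair of clusters, from -2.30 to -0.30. Cyp2s1, an enzyme of epithelia in the airways and gut, measured 2.73, 2.71, 3.01, 5.61 and 5.60 in controls and 5.84, 5.88, 5.34, 5.32 and 5.32 in stiripentol libraries. Here controls 1 to 3 stood apart from the other 7 libraries. Its log2 change of 1.61 (limma, adjusted p = 0.0713, with a standard error of 0.61) was 2.51 to 3.04 against controls 1 to 3 and -0.28 to 0.25 against controls 4 and 5. Cyp2u1, a fatty acid hydroxylase just above the filter, had stiripentol values of -3.27, -1.52, 1.01, 1.14 and 1.41 around control values of -0.41 to 1.02, and its log2 change was -0.69 (limma adjusted p = 0.552).

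**Figure D3:**
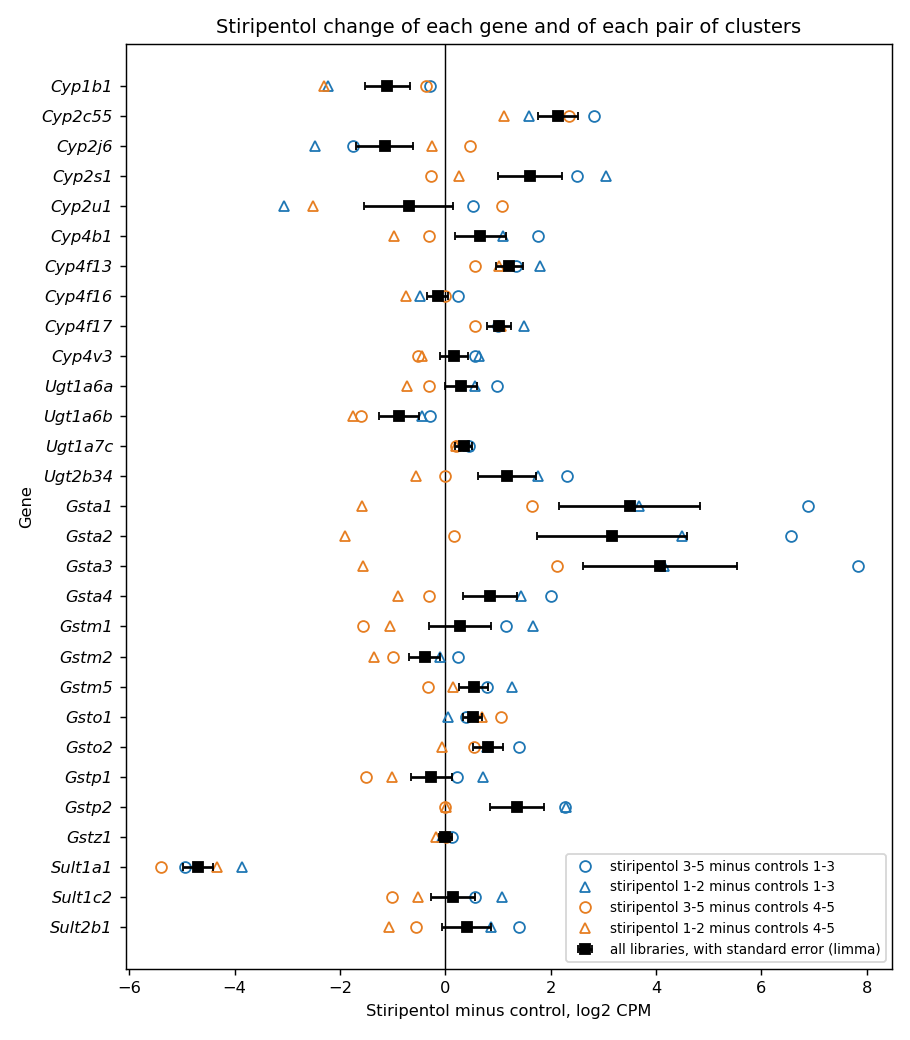
Stiripentol minus control in log2 CPM for each of the 29 genes, over all libraries with the standard error from limma (black squares) and for each of the 4 pairs of clusters (open symbols, blue against controls 1 to 3 and orange against controls 4 and 5). For Gsta1 to Gsta4 and Gstm1 both blue symbols lie above 0 and at least 1 orange symbol lies below it, whereas all symbols lie on one side for 8 genes, among them the 4 called ones.

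None of the 12 GST genes above the filter was called on the deposited scaling, with 4 called higher by TMM and 5 by quantile normalization, and 9 of them were over 1 (log2 scale) higher in controls 4 and 5 than in controls 1 to 3. All 4 genes of the alpha class, whose enzymes detoxify lipid peroxidation products and reactive metabolites, were above the filter. Gsta1 measured -0.73, -1.46, 0.63, 4.87 and 4.59 log2 CPM in controls and 3.20, 3.12, 6.40, 6.36 and 6.35 in stiripentol libraries. Gsta2 measured -1.43, -1.33, -0.94, 5.13 and 5.20 in controls and 3.30, 3.22, 5.33, 5.28 and 5.37 in stiripentol libraries. Gsta3 measured -3.37, -4.24, -2.95, 2.28 and 2.10 in controls and 0.81, 0.45, 4.38, 4.14 and 4.40 in stiripentol libraries. In each of the 3 genes the order was controls 1 to 3, then stiripentol 1 and 2, then controls 4 and 5, then stiripentol 3 to 5. Controls 4 and 5 were above controls 1 to 3 by 5.25, 6.40 and 5.71 on the log2 scale. Over all libraries the log2 changes were 3.51 (limma, adjusted p = 0.0731, with a standard error of 1.34), 3.17 (limma, adjusted p = 0.118, with a standard error of 1.43) and 4.07 (limma, adjusted p = 0.0590, with a standard error of 1.46). Stiripentol 3 to 5 were above controls 1 to 3 by 6.89, 6.56 and 7.83, whereas the difference between stiripentol 1 and 2 and controls 4 and 5 was -1.58, -1.91 and -1.56. Without control 4, or without control 5, all 3 genes were called higher, with adjusted p-values as low as 0.0319, 0.0418 and 0.0278 (limma), and the number of genes of the 29 called higher was 9 instead of 3, where 13.9% and 13.1% of all genes were called higher without these libraries. Gsta4, which prefers hydroxynonenal as its substrate, measured 4.79, 4.70, 5.12, 7.28 and 7.11 in controls and 6.31, 6.29, 6.84, 6.93 and 6.88 in stiripentol libraries. All its stiripentol values thus lay between the control clusters, and the log2 change was 0.85 (limma, adjusted p = 0.229, with a standard error of 0.52).

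**Figure D4:**
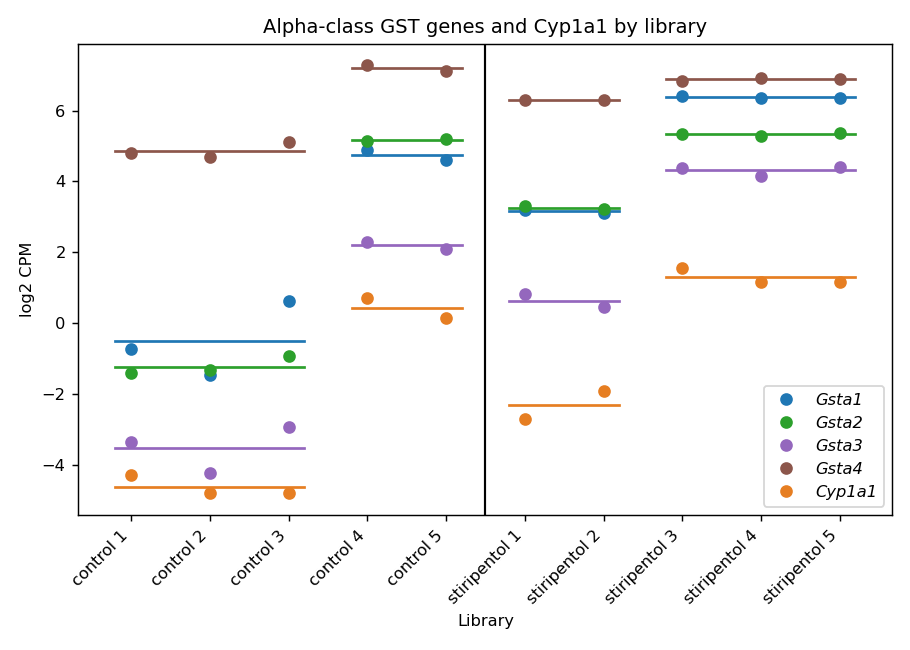
Log2 CPM of Gsta1 to Gsta4 and of Cyp1a1 in each library (points), with a line at the mean of each cluster of libraries. Gsta1, Gsta2, Gsta3 and Cyp1a1 are lowest in controls 1 to 3, intermediate in stiripentol 1 and 2 and higher in controls 4 and 5 and in stiripentol 3 to 5.

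Cyp1a1, the classical target gene of Ahr, was below the filter and was picked out after its values were seen. It had 1, 0, 0, 102 and 24 reads in controls 1 to 5 and 7, 13, 167, 130 and 121 reads in stiripentol 1 to 5. Its reads were thus nearly absent in controls 1 to 3 and highest in stiripentol 3 to 5, the same libraries as for Gsta1. The promoters of these genes are printed because Gsta1, Gsta2 and Gsta3 moved together across the clusters. They are from RefSeq on GRCm38.p6 and run from 250 bases before to 30 bases after the annotated start, 5′ to 3′ in the direction of the gene. Capitals mark the letters of the motifs searched on both strands, GCGTG (the core bound by Ahr and Arnt), its longer form TNGCGTG, which contains the first, and TGACNNNGC (the core of the antioxidant response element).
Gsta1 (chr9:78230419-78230698, plus strand): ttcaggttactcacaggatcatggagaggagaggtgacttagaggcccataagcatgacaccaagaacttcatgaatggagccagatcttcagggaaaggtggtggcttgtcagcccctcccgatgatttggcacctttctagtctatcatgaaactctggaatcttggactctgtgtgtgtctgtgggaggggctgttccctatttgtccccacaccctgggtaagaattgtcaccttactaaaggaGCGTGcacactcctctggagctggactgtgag
Gsta2 (chr9:78347116-78347395, minus strand): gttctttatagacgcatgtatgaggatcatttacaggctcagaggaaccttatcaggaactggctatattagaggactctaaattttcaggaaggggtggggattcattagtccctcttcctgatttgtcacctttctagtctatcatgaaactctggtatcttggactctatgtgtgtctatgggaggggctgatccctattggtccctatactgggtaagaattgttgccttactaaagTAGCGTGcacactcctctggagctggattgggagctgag
Gsta3 (chr1:21240335-21240614, plus strand): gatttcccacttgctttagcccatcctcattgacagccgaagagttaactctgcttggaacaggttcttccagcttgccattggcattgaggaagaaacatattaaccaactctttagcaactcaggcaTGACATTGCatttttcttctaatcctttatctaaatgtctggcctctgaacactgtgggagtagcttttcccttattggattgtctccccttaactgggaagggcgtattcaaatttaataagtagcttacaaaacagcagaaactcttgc
Cyp1a1 (chr9:57697363-57697642, plus strand): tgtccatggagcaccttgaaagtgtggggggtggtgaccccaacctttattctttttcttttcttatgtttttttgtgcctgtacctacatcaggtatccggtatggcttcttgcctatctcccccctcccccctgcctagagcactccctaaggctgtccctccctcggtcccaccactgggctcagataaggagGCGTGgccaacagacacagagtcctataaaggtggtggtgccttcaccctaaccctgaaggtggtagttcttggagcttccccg

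GCGTG begins at base 249 of the Gsta1 window and at base 197 of the Cyp1a1 window, and the Gsta2 window has the longer form from base 242. The Gsta3 window has neither but has TGACNNNGC from base 130. In windows of 300 bases, GCGTG was present in 32.4% of 32851 promoters, TNGCGTG in 5.07% and TGACNNNGC in 12.4%. Of the 29 genes, 25 had an entry, with 29 promoters in all, of which 11 held GCGTG, 1 TNGCGTG and 3 TGACNNNGC. These are matches of letters and do not show binding, and the promoters listed for Sult1a1, Cyp2c55 and Cyp4f13 held none of the 3 motifs. Sites outside these windows were not searched. In global alignments of the windows, of 311 to 327 columns with gaps, the Gsta1 and Gsta2 promoters were 74.6% identical, and Gsta3 was 52.0% identical to Gsta1 and 51.4% to Gsta2. The Cyp1a1 promoter, from an unrelated gene, was 42.4% to 44.1% identical to each of the 3. Copies also complicate the transcripts, as 80.6% of the 100-base windows of Gsta1 occurred in another gene, most often Gm3776, and 28.4% of those of Gsta2. Gm3776 measured -1.01, -0.73, 0.22, 4.93 and 4.85 log2 CPM in controls and 3.09, 3.18, 6.54, 6.41 and 6.42 in stiripentol libraries, within 0.5 of Gsta1 in 9 of 10 libraries, so the reads of this pair may not be separable. No 100-base window of Gsta3 or Gsta4 occurred in another gene.

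The mu and pi classes, which conjugate many electrophiles, showed the same step between the control clusters. Gstm1 measured 5.15, 5.16, 5.45, 7.90 and 8.03 log2 CPM in controls and 6.89, 6.96, 6.39, 6.45 and 6.39 in stiripentol libraries. Gstp1, among the most abundant transferases of tumour cells, measured 7.59, 7.55, 7.77, 9.41 and 9.33 in controls and 8.34, 8.38, 7.87, 7.89 and 7.83 in stiripentol libraries. For both genes every stiripentol value lay between the control clusters. The log2 change was 0.28 (limma, adjusted p = 0.744, with a standard error of 0.59) for Gstm1 and -0.27 (limma, adjusted p = 0.621, with a standard error of 0.39) for Gstp1, which shares 25.1% of its windows with Gstp2. Gsto1, of the omega class that reduces dehydroascorbate and arsenic compounds, went the other way between the controls. It measured 7.81, 8.08, 8.11, 7.40 and 7.29 in controls and 8.09, 8.01, 8.43, 8.42 and 8.36 in stiripentol libraries, so the groups overlapped only between 8.01 and 8.11. Its log2 change was 0.52 (limma, adjusted p = 0.0510, with a standard error of 0.18), with differences of 0.047 to 1.06 over the pairs of clusters. Gstz1, which degrades tyrosine, was nearly level at 4.58 to 4.94 in all 10 libraries, and its log2 change was 0.00 (limma, adjusted p = 0.987, with a standard error of 0.12). It was picked out after its values were seen.

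None of the 4 UGT genes above the filter was called. Ugt1a6a, which glucuronidates small phenols, measured 6.24, 6.18, 6.53, 7.64 and 7.56 log2 CPM in controls and 6.84, 6.91, 7.29, 7.24 and 7.36 in stiripentol libraries. Ugt2b34, of a family known for conjugating steroids, measured 4.03, 3.84, 5.23, 6.64 and 6.71 in controls and 6.13, 6.13, 6.67, 6.62 and 6.73 in stiripentol libraries. Stiripentol values of Ugt1a6a lay between the control clusters, and those of Ugt2b34 lay between them or level with controls 4 and 5. The log2 changes were 0.30 (limma, adjusted p = 0.467, with a standard error of 0.30) and 1.17 (limma, adjusted p = 0.131, with a standard error of 0.55). The 9 Ugt1a genes of the list share 4 exon stretches of 1311 bases at their common 3′ end, so 3′ reads cannot be assigned to one of them with certainty. In the annotation, 50.4% of the 100-base windows of Ugt1a6a occurred in another gene.

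Counted over the 29 genes, 26 were higher in controls 4 and 5 than in controls 1 to 3, compared with 51.2% of all genes. A difference of over 1 on the log2 scale in this direction was found in 17 of the 29, compared with 8.26% of all genes, and it included 9 of the 12 GST, 3 of the 4 UGT, 3 of the 10 P450 and 2 of the 3 SULT genes. In the opposite direction 1 gene exceeded 1, Cyp2j6, of a family of arachidonic acid epoxygenases, picked out after its values were seen, at 1.88, 1.99, 2.09, 0.04 and -0.50 log2 CPM in controls 1 to 5. The median difference between control clusters was 1.25 for the 29 and 0.0166 for all genes. These counts describe 3 against 2 libraries of one group, which were found to be clusters from the same table, so no test was made. The stiripentol clusters were over 1 apart in 7 of the 29, compared with 25.4% of all genes. The direction of change was shared by all 4 pairs of clusters in 8 of the 29 and in 42.4% of all genes. These were Sult1a1, Cyp2c55, Cyp4f13, Cyp4f17, Cyp1b1, Gsto1, Ugt1a6b and Ugt1a7c, the last 2 named after their values were seen. Of the windows of Ugt1a6b and Ugt1a7c, 70.9% and 51.6% occurred in another gene.

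The clusters were also placed in sets by their size, controls 1 to 3 with stiripentol 3 to 5 and controls 4 and 5 with stiripentol 1 and 2, which are the libraries that share numbers in the printed table. Correlation did not single out this placing. Stiripentol 3 to 5 correlated at 0.9196 to 0.9357 with controls 1 to 3 and at 0.9315 to 0.9377 with controls 4 and 5. Stiripentol 1 and 2 correlated at 0.8402 to 0.8751 and 0.8805 to 0.9035 with them. The interaction depends on the placing. In a limma model with an interaction of treatment and set, 24 of the 29 genes had an adjusted p under 0.05, where 63.3% of all genes did. In a model with the set as a term, 9 of the 29 were higher and 3 lower, where 23.6% and 27.1% of all genes were. Those lower were Sult1a1, Cyp1b1 and Cyp2j6, and those higher included the 3 called P450 genes with Cyp2s1, Gsta3 and Gsto1. Because the sets were drawn from these libraries, the p-values of both models do not account for that choice.

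Below the filter lay 45 of the 74 genes. Gstk1 and Cyp2j13 had no read in any library, 27 genes including these had at most 10 reads in each library, 15 reached 11 to 100, and 3 exceeded 100, namely Ugt2b35, Cyp1a1 and Cyp4f40. No gene of the Cyp3 family or of the theta class of GST passed the filter. Next to the filter, the mean log2 CPM was 0.02 for Cyp2c55 and 0.10 for Cyp2u1 just above it, and -0.57 for Ugt2b35 and -0.69 for Gstp3 just below it. Ugt2b35 had 50, 42, 83, 243 and 86 reads in controls and 8, 0, 35, 29 and 38 in stiripentol libraries. Cyp4f40, picked out after its values were seen, had 13, 5, 8, 1 and 0 reads in controls and 2, 5, 107, 89 and 81 in stiripentol libraries.

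Of 78 other genes of drug metabolism, in lists of P450 partners, receptors, donor supply, other enzymes and efflux transporters, 61 were above the filter. Of these 61, 4 were called higher and 8 lower, where 13.6% and 14.1% of all genes were. The genes of these lists were thus not called more often than all genes. Among the receptors, Ahr measured 6.67, 6.74, 6.51, 6.17 and 6.38 log2 CPM in controls and 4.59, 5.09, 5.05, 4.92 and 5.11 in stiripentol libraries. Tiparp, an Ahr target gene whose product represses Ahr, measured 5.60, 5.59, 5.76, 6.57 and 6.68 in controls and 8.03, 7.97, 7.30, 7.22 and 7.35 in stiripentol libraries. Neither gene overlapped between groups, Ahr being lower and Tiparp higher in each stiripentol library. Ahr fell by 1.54 on the log2 scale (limma, adjusted p = 0.000132, with a standard error of 0.15) and Tiparp rose by 1.53 (limma, adjusted p = 0.00266, with a standard error of 0.27). Keap1, the inhibitor of Nfe2l2, fell by 0.61 (limma adjusted p = 0.0262), whereas Nfe2l2 itself, picked out after its values were seen, changed by -0.18 (limma adjusted p = 0.339). Keap1 was not called without control 4 (limma adjusted p = 0.0506), control 5 (limma adjusted p = 0.0511) or stiripentol 2 (limma adjusted p = 0.0624).

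**Figure D5:**
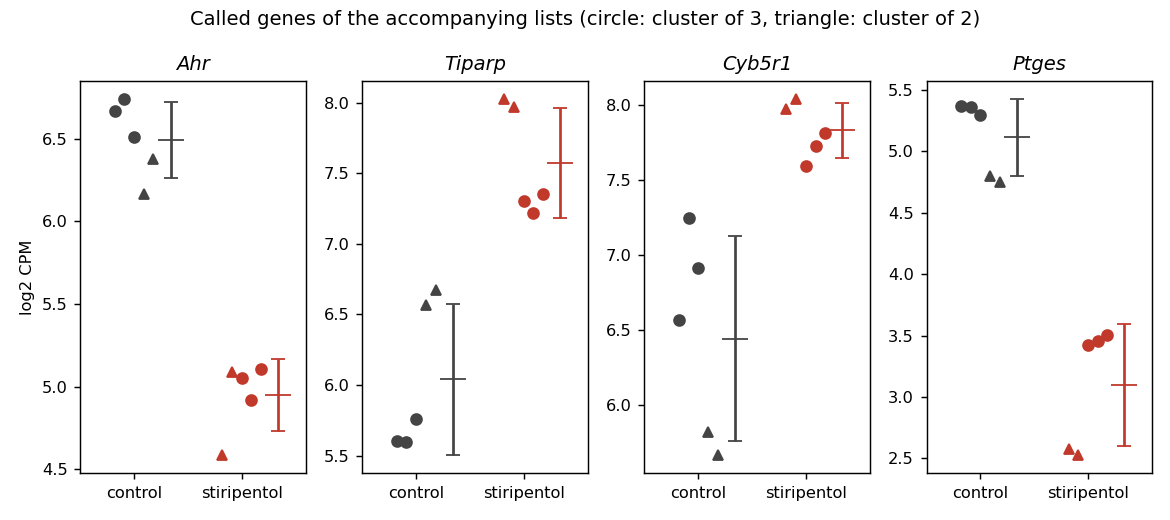
Log2 CPM of Ahr, Tiparp, Cyb5r1 and Ptges in each library (points, circles for clusters of 3 libraries and triangles for clusters of 2), with the mean and SD of each group of 5 beside them. The groups do not overlap in any of the 4 panels, with Ahr and Ptges lower and Tiparp and Cyb5r1 higher in stiripentol libraries.

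Among the partners that pass electrons to P450 enzymes, Por, the P450 reductase, was lower by limma, and Cyb5r1, a cytochrome b5 reductase, was higher. Cyb5r1 measured 6.57, 7.25, 6.91, 5.82 and 5.67 log2 CPM in controls and 7.97, 8.04, 7.59, 7.73 and 7.81 in stiripentol libraries, a rise of 1.39 (limma, adjusted p = 0.00569, with a standard error of 0.28). Por fell by 0.73 (limma adjusted p = 0.0287), but its change was -1.24 in stiripentol 3 to 5 against controls 1 to 3 and 0.04 in stiripentol 1 and 2 against controls 4 and 5. Por was not called when any of controls 1 to 3 or stiripentol 3 to 5 was left out, with adjusted p-values up to 0.0659 (limma). Of the genes that supply donors, Papss1, which makes the sulfate donor of Sult1a1, fell by 0.39 (limma adjusted p = 0.0138), and the sulfate transporter gene Slc26a2 fell by 0.86 (limma adjusted p = 0.0269). Slc35b1, a nucleotide transporter of the endoplasmic reticulum, rose by 1.06 (limma adjusted p = 0.00482). With TMM scaling, Papss1 (adjusted p = 0.0968) and Por (adjusted p = 0.0990) were no longer called, and Slc26a2 was not called without control 4, control 5 or stiripentol 2, with adjusted p-values of 0.0545 to 0.0621 (limma).

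The remaining called genes of these lists were Ptges, Nqo2, Aox1 and Abcb1b. Ptges, the prostaglandin E synthase, measured 5.37, 5.36, 5.30, 4.80 and 4.75 log2 CPM in controls and 2.58, 2.53, 3.43, 3.45 and 3.51 in stiripentol libraries. Its values were thus lower in every stiripentol library, by 2.02 on average (limma, adjusted p = 0.000514, with a standard error of 0.25). The quinone reductase gene Nqo2 rose by 0.81 (limma adjusted p = 0.00926) and the aldehyde oxidase gene Aox1 fell by 0.92 (limma adjusted p = 0.0222), though Aox1 was not called without stiripentol 2 (limma adjusted p = 0.0521). Abcb1b, which encodes an efflux pump of hydrophobic drugs, fell by 1.05 (limma adjusted p = 0.0467). Its groups overlapped, and it was not called without control 1, control 2 or control 3 nor without stiripentol 1, 2, 3 or 4, with adjusted p-values up to 0.107 (limma). Nqo1, a target gene of both Ahr and Nfe2l2 that was picked out after its values were seen, lay below the filter at -2.29, -2.85, -2.26, 1.91 and 2.07 in controls and -2.43, -3.49, -0.07, 0.06 and -0.14 in stiripentol libraries, highest in controls 4 and 5.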

How the data were processed

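RNA was sequenced from 5 control and 5 stiripentol libraries of mSCLC cells. The authors deposited 1 table with the log2 CPM of every gene in every library, taken after addition of a small prior. The methods name GENAVi for this step, the labels name mm10, and the aligner and annotation are not given in the sources used here. The library kit is a QuantSeq 3′ kit in the methods and a TruSeq total RNA kit in the labels. The table also holds the authors' own comparison (group means, p-values, q-values, fold changes and differences), which was not used.

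Whole reads were recovered from 100% of the values (within 0.01 of a whole number). Groups were compared by limma 3.58.1 (R 4.3.3, mean-variance trend, no covariate) fitted to the log2 values of the 12306 genes above the filter (mean log2 CPM over 0), with Benjamini-Hochberg adjustment and a threshold of 0.05. A value of -4.82 in controls 1 to 3 and -4.74 in the other libraries stands for no read. The model was tested on simulated data that were drawn independently for each library. That test thus does not cover the clusters of libraries seen here. Tables were handled in Python 3.11.15 with pandas 2.3.3. Positions and transcripts are from GENCODE M21 on GRCm38.

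The genes and lists were chosen with earlier results of these data known. The genes named are those called, the highest of each family, those changed by at least 1 in both library sets, the 2 on each side of the filter, and the called genes of the other lists. Replicate numbers of the sample records were not taken to pair the libraries, as deviations of same-numbered libraries correlated at -0.24 to 0.06, with 0 of 5 over 0.1. In the order of a table printed in the paper, which numbers the controls otherwise, they correlated at 0.084 to 0.22, with 4 of 5 over 0.1. Alternatives were other scalings, filters and pseudocounts, limma voom on recovered reads, a replicate block, the library sets and leaving out each library. Other choices of clusters, cluster means and the block in the printed order were added after seeing the data. The genotype of the line in full and 1 marker are not reported here.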

Additional observations from a re-analysis of the deposited data

Results flagged for a closer look

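The total of control 5 was 22375625 reads, far from the other 4 controls, which were between 57991647 and 65299372 reads. The gap was 0.83 of the range of the group, where 0.71 is the critical value for 5 samples. Over 62 groups of 5 values examined (the totals, and the named genes in each group), 1 stood out, and 3.1 would by chance. In the same cluster, control 4 had 63607057 reads.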

How the results depend on the processing

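Sult1a1 and Cyp4f13 were called in 27 of 28 alternatives, Cyp2c55 in 26 of 27 and Cyp4f17 in 25 of 28, and the alternative that lost all 4 was 1 mean per cluster. That fit called 0 of 12306 genes (limma), with 1116 genes, 2 of them among the 29, at an unadjusted p under 0.05, and it gave 0 higher, 0 lower and 0 genes of the other lists. The replicate block gave 5 of the 29 genes higher, with Cyp4f17 lost (limma adjusted p = 0.0515), and 1020 genes higher and 1062 lower in all. The block used the numbers of the sample records, which differ from those of the table printed in the paper. A replicate block in the printed order, added after seeing the data, gave 6 higher and 2 lower, with all 4 called genes kept, and 2050 genes higher and 2199 lower in all, whereas Aox1, Keap1, Por and Slc26a2 were no longer called (limma adjusted p = 0.0526 to 0.0746). Of the 74 genes, only those above the filter of each fit were tested, 29 in the main analysis. Counts called higher (3 in the main analysis) were 7 with TMM, 8 with quantile normalization, 5 with a pseudocount of 1 CPM and 6 with voom. They were 9 with the set as a term, 20 in the larger set alone, 17 with controls 1 to 3 and 7 with stiripentol 3 to 5. With 1 library left out they were 3 to 9, the 9 without control 4 or control 5. Counts called lower (1 in the main analysis) were 3 with a filter of -2, 3 with none and 3 with the set as a term. They were 2 in the larger and 18 in the smaller set alone, 2 with controls 1 to 3, 6 with controls 4 and 5 and 4 with stiripentol 1 and 2. With 1 library left out they were 1 to 2, the 2 without control 5 or stiripentol 5. The genes added as lower were Ugt2b35 and Ugt2b36 with a filter of -2, and Ugt1a2 and Ugt2b36 with none. Those added as higher were Gstp3 with a filter of -2 and Cyp2c65 with none. Genes called higher over the table (1674) were 2908 with the set as a term and 4637 and 3158 in the larger and smaller set alone. They were 1693 with a pseudocount of 1 CPM, 1762 with voom, 2477 with controls 1 to 3 and 2086 with stiripentol 3 to 5. Genes called lower (1740) were 3336, 3322 and 5726, and 4238 with stiripentol 1 and 2. They were 2014 with controls 1 to 3 and 1215 with controls 4 and 5. With a filter of -2 they were 2000 and with none 1747, where more genes were tested. Genes of the other lists called (12) were 24 with the set term, 42 and 43 in the larger and smaller sets, 22 with controls 1 to 3, 19 with controls 4 and 5 and 20 with stiripentol 1 and 2. The 24 genes with an interaction stayed within 1.5 times that count under the other scalings, pseudocounts and filters.

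Over 30 named genes and 836 alternatives, 690 kept direction and side of the threshold, 60 lost it, 56 gained it and 30 changed sign. In the smaller set alone the log2 changes of the opposite sign were -1.58 for Gsta1, -1.91 for Gsta2, -1.56 for Gsta3, -0.89 for Gsta4, -1.05 for Gstm1, -0.51 for Sult1c2, -1.08 for Sult2b1, -0.72 for Ugt1a6a, -0.55 for Ugt2b34 and 0.038 for Por. With controls 4 and 5 they were -0.067 for Cyp2s1, -0.67 for Gsta2, -0.54 for Gsta4, -1.35 for Gstm1, -0.81 for Sult1c2, -0.77 for Sult2b1, -0.47 for Ugt1a6a and -0.22 for Ugt2b34. Cyp2u1 was 0.52 in the larger set, 0.74 with stiripentol 3 to 5 and -1.11 to 0.064 with 1 library left out, the latter without stiripentol 1. Gstp1 was 0.23 in the larger set, 0.43 with controls 1 to 3, 0.031 with stiripentol 1 and 2 and -0.46 to 0.0020 with 1 library left out, the latter without control 4. With 1 library left out, Gstm1 was -0.022 to 0.70 and Sult1c2 -0.16 to 0.39, both below 0 without control 1 or control 2, and Sult1c2 was -0.060 with stiripentol 3 to 5. The cause was not tested. The 2 planned count-model tests on recovered reads were not run, a choice made because the deposited values are on a log scale. Limma voom was the only model fitted to the recovered reads. Cyp2c55, with at most 188 reads per library, is the called gene with least depth.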
